A study of Mus musculus with 19 samples.

Results

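The effect of a muscle lipoprotein lipase transgene was examined in gastrocnemius, a calf muscle, of mice held in weight loss maintenance (WLM). All 5 libraries labelled mCK-hLPL and all 5 labelled wild type (WT) from that phase were compared across every gene, which is 10 of the 19 libraries of the series. All animals were of strain FVB. The mCK-hLPL mice carry a human LPL transgene whose name points to the muscle creatine kinase promoter. Both groups had lost weight and were holding it when the muscle was taken. The other 9 libraries, 4 WT and 5 mCK-hLPL, came from mice refed for 24 hours, a phase labelled REL, and served to set the spread of the model and to give the same genes' values in separate libraries. Sex, age, diet and the number of transgenic founder lines are not given in the labels, nor is it stated that each library is 1 animal. P-values therefore measure only the spread between these samples.

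Lipoprotein lipase sits on the capillary wall, held there by Gpihbp1, and splits triglyceride carried by circulating lipoproteins so that the tissue can take up the fatty acids. In muscle those fatty acids are burned in mitochondria or stored as triglyceride, and they can also activate nuclear receptors of the PPAR family. The series title links the transgene to weight regain and energy expenditure, and the WLM comparison asks what the transgene changed before refeeding began.

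Total counts ran from 37444398 to 51073355 in the 10 WLM libraries. The sum of 13 skeletal muscle marker transcripts (such as Acta1, Ckm and Myh4) lay between 140633 and 187152 CPM (counts scaled to a common library size, scaled with TMM factors) in every WLM library, and Ddx3y, a Y-linked transcript, was at 69.2 to 103 CPM in all 10. In 3 of the 10, transcripts of other cells stood out. The sum of 9 T and B cell transcripts was 58.4 CPM in WT_WLM replicate 1, 58.8 CPM in WT_WLM replicate 5 and 49.3 CPM in mCK-hLPL_WLM replicate 3, against 0.538 to 1.98 CPM in the other 7, and these 3 libraries were set apart on the first principal component (29.4% of the variance). Hemoglobin transcripts summed to 3078 CPM in mCK-hLPL_WLM replicate 1 and to 493.1 to 1679 CPM in the other 9. For gene lists whose median moved most, the value without the 3 libraries is given beside the main one.

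The deposited table holds no row for the transgene. Mouse Lpl (GRCm38, chromosome 8, 68880491 to 68907448, plus strand) stood at 764, 562, 607, 627 and 692 CPM in WT_WLM and at 815, 675, 773, 737 and 649 CPM in mCK-hLPL_WLM. The groups overlapped, and the log2 difference was 0.17 ± 0.12 (SE, 95% interval -0.08 to 0.42; edgeR adjusted p = 0.942). Whether human reads were counted at this row is not given, so no row checks the genotype labels. Ckm, the muscle creatine kinase gene, was at 0.15 ± 0.15 (log2 difference, SE), with an interval of -0.16 to 0.45.

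Few transcripts were detected as different between the genotypes. Of 17028 genes tested with edgeR, 5 passed an adjusted p of 0.05, which is 0.0294% of them. Chrna1, Katnal2, Ostn and Fbp2 were higher in mCK-hLPL muscle and Trnp1 was lower. In each of the 5 genes every mCK-hLPL library lay on the same side of every WT library. Such a separation of the groups was seen for 0.44% of all genes in the higher direction and 0.358% in the lower direction. At an unadjusted p under 0.05, 407 genes (2.39%) were higher and 421 (2.47%) lower.

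Chrna1 encodes the acetylcholine receptor's alpha subunit in muscle, the part of the channel that binds the transmitter released by the motor nerve. It lies on chromosome 2 (73563215 to 73580338, minus strand). Its level was 10.2, 12.3, 13.8, 14.4 and 11.8 CPM in the 5 WT_WLM libraries and 27.6, 31.4, 32.0, 25.9 and 36.4 CPM in the 5 mCK-hLPL_WLM libraries. The lowest mCK-hLPL library was well above the highest WT library. The means were 12.5 ± 1.67 and 30.7 ± 4.13 CPM (SD, n = 5 each), and the log2 difference was 1.29 ± 0.11 (SE; edgeR adjusted p = 7.31e-06). In muscle, Chrna1 and the epsilon subunit gene Chrne (chromosome 11, 70614883 to 70619216, minus strand) are known to be controlled by E-boxes, which myogenic factors bind, and Chrne also by an N-box, which ETS factors bind. The promoter windows of both are shown because these receptor subunit genes headed the synaptic genes. Each window is the 250 bases before the RefSeq start (GRCm38.p6), written 5′ to 3′ on the minus strand of the chromosome, with E-boxes (CANNTG) and N-boxes (CCGGAA, searched on both strands) in capitals.
Chrna1, chr2:73580339-73580588: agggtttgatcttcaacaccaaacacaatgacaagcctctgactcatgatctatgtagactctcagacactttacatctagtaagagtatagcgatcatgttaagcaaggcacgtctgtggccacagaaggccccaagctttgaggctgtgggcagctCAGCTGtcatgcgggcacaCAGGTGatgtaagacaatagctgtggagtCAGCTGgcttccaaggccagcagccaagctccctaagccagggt
Chrne, chr11:70619195-70619444: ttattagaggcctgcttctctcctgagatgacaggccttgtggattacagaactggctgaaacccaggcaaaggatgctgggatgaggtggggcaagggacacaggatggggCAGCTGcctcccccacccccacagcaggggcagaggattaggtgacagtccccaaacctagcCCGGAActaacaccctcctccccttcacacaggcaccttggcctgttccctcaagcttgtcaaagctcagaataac
The Chrna1 window held 3 E-boxes, 2 of them the CAGCTG form, and no N-box. The Chrne window held 1 E-box, also CAGCTG, and 1 N-box. Among 32851 promoter windows in the table, 66.2% held a CANNTG, 13.0% a CAGCTG and 12.03% a CCGGAA, so these letters are common and mark no site by themselves.

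Katnal2 (chromosome 18, 76977148 to 77047308, minus strand) encodes a katanin-like protein of the family of microtubule-severing ATPases. It was at 2.70, 2.003, 2.32, 2.62 and 2.04 CPM in WT_WLM and at 6.47, 6.18, 6.66, 6.04 and 7.62 CPM in mCK-hLPL_WLM. All 5 mCK-hLPL values were above all 5 WT values, with means of 2.34 ± 0.32 and 6.59 ± 0.624 CPM (SD, n = 5 each). The log2 difference was 1.49 ± 0.15 (SE; edgeR adjusted p = 3.66e-05), the largest rise among the 5 genes. Other katanin genes did not pass: Katna1, the catalytic subunit, was at 0.01 ± 0.08 (log2 difference, SE), Katnal1 at 0.04 ± 0.10 and Katnbl1 at 0.12 ± 0.13.

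Ostn (chromosome 16, 27307489 to 27351212, plus strand) encodes osteocrin, a peptide secreted by muscle and bone that binds the natriuretic peptide clearance receptor. It was measured at 25.6, 37.9, 34.1, 31.4 and 41.3 CPM in WT_WLM and at 72.7, 85.7, 47.0, 73.2 and 59.9 CPM in mCK-hLPL_WLM. The lowest mCK-hLPL library, replicate 3, was close to the highest WT library, replicate 5, and the groups did not overlap. The log2 difference was 0.99 ± 0.14 (SE; edgeR adjusted p = 0.00737). Of the 20 secreted muscle factors tested, Ostn was the 1 that passed (0.0294% of all genes did). The median log2 difference of the list was 0.07 against -0.00 over all genes. Ccl25, a chemokine, was next at 0.41 ± 0.12 (edgeR adjusted p = 0.651), and the genes of myostatin (Mstn, -0.07 ± 0.18), irisin's precursor (Fndc5, 0.16 ± 0.13) and the clearance receptor (Npr3, 0.07 ± 0.32) did not pass. The latter genes were named after their values were seen.

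Fbp2 (chromosome 13, 62836877 to 62858422, minus strand) encodes the muscle form of fructose bisphosphatase, which turns fructose bisphosphate back towards glucose phosphate against the flow of glycolysis. It was at 17.6, 17.5, 20.6, 20.9 and 24.8 CPM in WT_WLM and at 31.9, 36.1, 29.4, 38.5 and 30.9 CPM in mCK-hLPL_WLM. The groups did not overlap, and the log2 difference was 0.72 ± 0.12 (SE; edgeR adjusted p = 0.0284). Its rise was not shared by its pathway. Of 21 genes of fructose bisphosphatase, its partner enzymes and glycogen, Fbp2 was the 1 that passed (0.0294% of all genes did). Below 0 were 15 of the 21 (50.1% of all genes were), with a median of -0.06. The liver form Fbp1 was measured imprecisely, at -1.75 ± 1.25 (edgeR adjusted p = 0.942), where the median SE over all genes was 0.139. Among 17 glycolysis genes none passed, the median was 0.00, and Hk2, the hexokinase of insulin-responsive muscle, had the smallest p at -0.29 ± 0.10.

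Trnp1 (chromosome 4, 133491100 to 133498550, minus strand), a nuclear protein known from neural progenitors of the mouse cortex, was the only gene that passed in the lower direction. It was at 6.13, 3.49, 12.4, 7.20 and 3.85 CPM in WT_WLM and at 1.62, 2.44, 2.23, 1.46 and 1.52 CPM in mCK-hLPL_WLM. The WT libraries were spread widely, with replicate 3 highest, and the mCK-hLPL libraries were all low. The log2 difference was -1.83 ± 0.30 (SE; edgeR adjusted p = 0.0284). The promoter windows of Fbp2 and Trnp1 are given in the same form as those of the receptor genes, since these genes moved in opposite directions.
Fbp2, chr13:62858401-62858650: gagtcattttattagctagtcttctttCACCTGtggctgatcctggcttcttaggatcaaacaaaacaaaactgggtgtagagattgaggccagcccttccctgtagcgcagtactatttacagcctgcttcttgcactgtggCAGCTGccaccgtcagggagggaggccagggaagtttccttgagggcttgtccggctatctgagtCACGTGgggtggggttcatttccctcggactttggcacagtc
Trnp1, chr4:133498551-133498800: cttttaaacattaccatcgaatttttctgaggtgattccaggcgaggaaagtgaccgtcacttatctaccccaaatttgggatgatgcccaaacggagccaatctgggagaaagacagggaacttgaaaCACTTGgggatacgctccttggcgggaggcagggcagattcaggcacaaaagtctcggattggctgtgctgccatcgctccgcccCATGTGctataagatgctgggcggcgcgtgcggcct
The Fbp2 window held 3 E-boxes, 1 of them CAGCTG, and the Trnp1 window held 2, neither of that form. Neither held a CCGGAA.

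**Figure D1:**
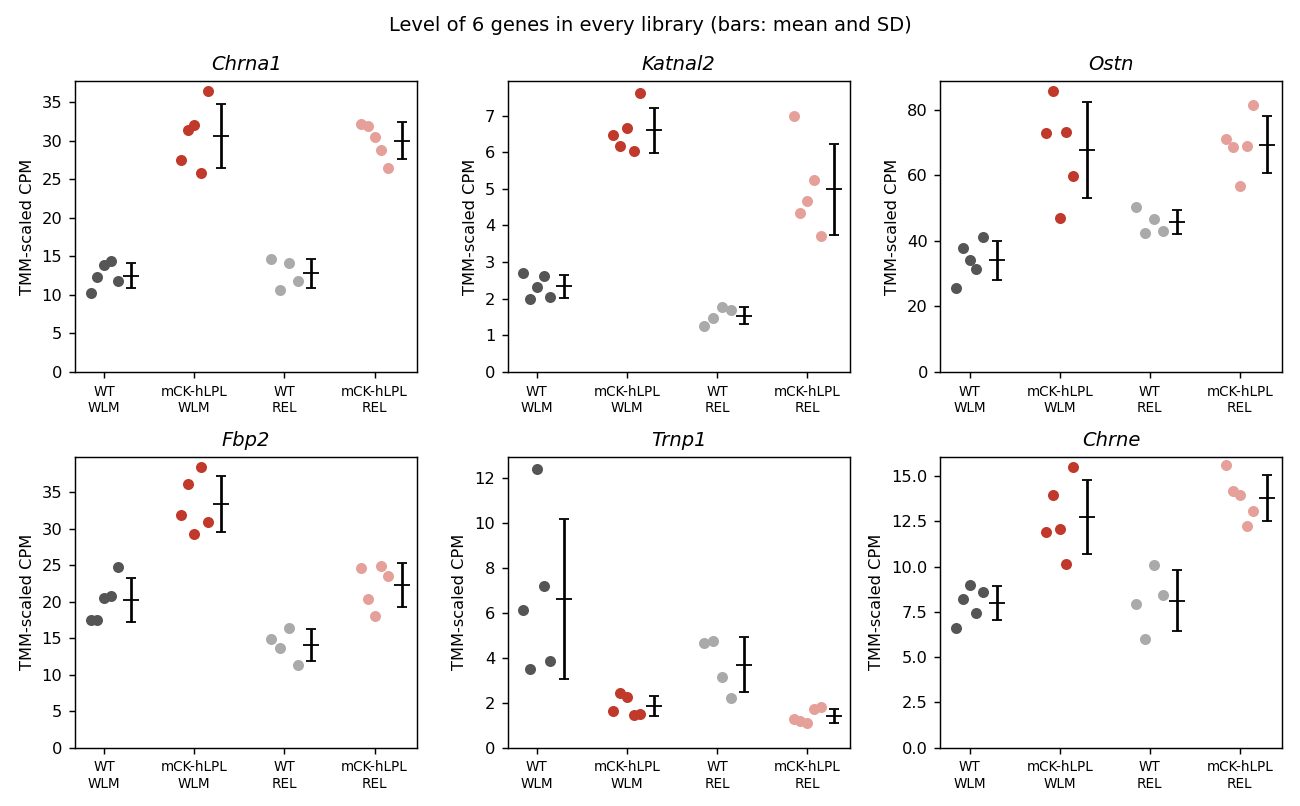
Level in CPM (TMM-scaled, linear axis from 0) of the 5 genes past the threshold and of Chrne in every library, by genotype and phase, with the mean and SD of each group beside the points. In WLM the points of the 2 genotypes do not overlap for any of the 6 genes, and for Chrna1 the WT points lie at 10.2 to 14.4 CPM and the mCK-hLPL points at 25.9 to 36.4 CPM.

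The 5 calls differed in how firmly they held. Chrna1 and Katnal2 were called under all 30 alternative settings and left-out libraries, and Ostn under 27. Fbp2 was called under 17 and Trnp1 under 15. Ostn, Fbp2 and Trnp1 were not called with the 2 WLM groups alone (edgeR adjusted p = 0.174, 0.141 and 0.220) or when a minimum log2 change of 0.5 was tested. For Fbp2 and Trnp1, leaving out 1 library often raised the adjusted p above the threshold, to 0.137 at most for Fbp2 and 0.154 for Trnp1, while the log2 difference stayed at 0.66 or more for Fbp2 and at -1.48 or beyond for Trnp1. For Fbp2 these libraries were WT_WLM replicates 1, 2, 3 and 4, mCK-hLPL_WLM replicates 1, 2, 4 and 5 and WT_REL replicate 1. For Trnp1 they were WT_WLM replicates 1, 3 and 4, every mCK-hLPL_WLM replicate, WT_REL replicate 1 and mCK-hLPL_REL replicate 1. Without the 3 libraries rich in T and B cell transcripts, 3 genes were called, namely Chrna1, Ostn and Katnal2. No tested gene within 500000 bases of any of the 5 was called, out of 10 neighbours of Chrna1, 5 of Katnal2, 2 of Ostn, 13 of Fbp2 and 19 of Trnp1. Over all genes 0.0294% were called, so a lack of calls among so few neighbours says little. At an unadjusted edgeR p under 0.05 there was 1 neighbour each of Katnal2, Ostn and Fbp2, and none of Chrna1 or Trnp1. The neighbours of Katnal2 ran from 0.09 to 0.40 in log2 difference, and those of the other genes lay on both sides of 0.

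The same genes were read in the refed libraries, which share no sample with the WLM comparison. Chrna1 was higher there by 1.23 ± 0.12 and Katnal2 by 1.69 ± 0.16 (log2 difference, SE; edgeR adjusted p = 2.59e-05 for both), and these 2 were the only genes called in REL, 0.0117% of those tested. Fbp2 was at 0.67 ± 0.13 in REL (edgeR adjusted p = 0.0923), Ostn at 0.60 ± 0.15 (adjusted p = 0.406) and Trnp1 at -1.38 ± 0.32 (adjusted p = 0.279). The WT level of Ostn was 34.0 ± 6.02 CPM in WLM (SD, n = 5) and 45.6 ± 3.65 CPM in REL (SD, n = 4), and the mCK-hLPL level was 67.7 ± 14.8 CPM in WLM and 69.4 ± 8.71 CPM in REL (SD, n = 5 each). A test of whether the genotype difference itself differed between phases gave 0 genes in edgeR (lowest adjusted p = 0.9998), with 403 at an unadjusted p under 0.05. DESeq2 was not run on this difference.

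The 20 genes next in order of p did not pass in edgeR, and 11 of them were higher and 9 lower. DESeq2, the alternative test, called 22 genes, which held the 5 above and 15 of these 20. It was run on 34660 genes rather than 17028, and its other 2 calls were provisional symbols with no count in any library of 1 WLM group, so that their fitted values are no fold. Maged2, a member of the MAGE family, was at 9.06 ± 0.519 CPM in WT_WLM and 13.0 ± 1.47 CPM in mCK-hLPL_WLM (SD, n = 5 each; log2 difference 0.52 ± 0.09, edgeR adjusted p = 0.0709). Gadl1, which makes beta-alanine for the muscle dipeptide carnosine, was at 0.62 ± 0.12, and Adamts5, a protease that cleaves proteoglycans, at 0.60 ± 0.13. Others with higher values were B3galt1, a galactosyltransferase (0.57 ± 0.11), Hs6st2, which sulfates heparan sulfate (0.57 ± 0.13), Sema3a, a guidance cue for axons (0.76 ± 0.17), Arl6ip5 (0.33 ± 0.08), Sh3bp5 (0.27 ± 0.06), the zinc finger gene Zfp52 (0.49 ± 0.12) and Xrra1 (1.77 ± 0.39, between 0.0489 and 0.515 CPM in every WLM library). Lower values were found for the kinase genes Plk3 (-1.07 ± 0.22) and Pim1 (-1.10 ± 0.27), for Adra1a, the alpha-1A adrenergic receptor (-0.64 ± 0.15), and for Lrtm2 (-1.25 ± 0.28), Flrt3 (-1.11 ± 0.26) and Hsd17b14 (-1.26 ± 0.30), whose WT_WLM means were 1.41, 0.510 and 0.764 CPM. The other 4 genes, Chrne, Pcca, Adhfe1 and Oxct1, belong to groups described next.

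Among the 20 genes of smallest p in WLM, 19 had the same sign in REL, the exception being Flrt3 at 0.14 ± 0.26 there. Among the first 100 it was 95, with a median size of 0.46 in WLM and 0.28 in the same direction in REL. Over all 17028 genes 55.8% had the same sign, and the 2 log2 differences had a Pearson correlation of -0.01 across genes, which are not independent replicates. Plk3, with a WLM difference of -1.07 ± 0.22, was at -0.04 ± 0.23 in REL, whereas Gadl1 was at 0.52 ± 0.13 and Adra1a at -0.70 ± 0.16 in REL.

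**Figure D2:**
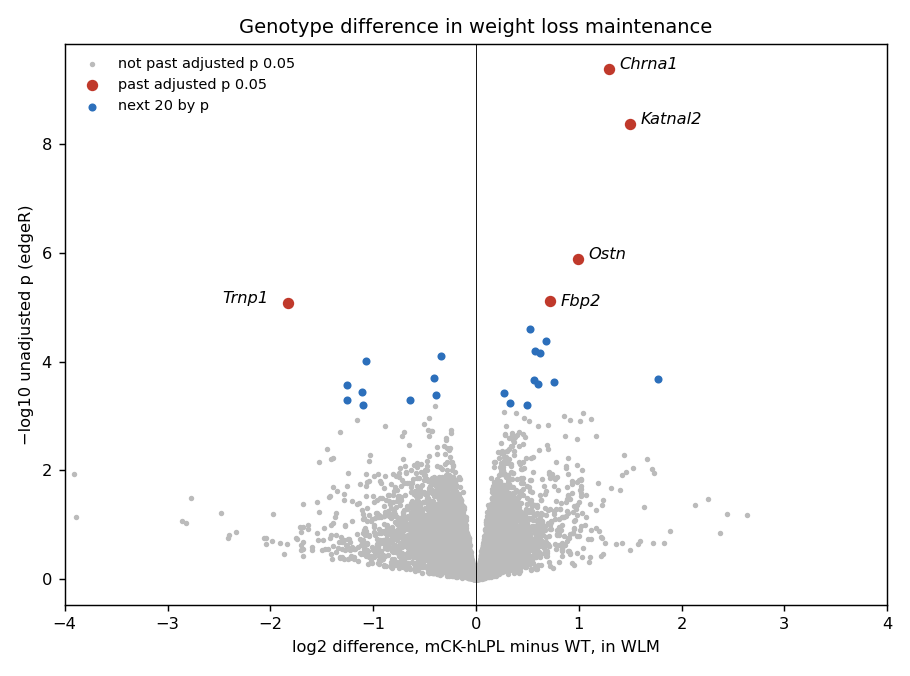
Log2 difference (mCK-hLPL minus WT in WLM, horizontal axis) against -log10 of the unadjusted edgeR p (vertical axis) for the genes tested; 10 genes beyond 4 on the horizontal axis lie outside the plot. The 5 genes past the adjusted threshold are named, with Chrna1 and Katnal2 highest, and the 20 genes next by p are in blue.

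The neuromuscular synapse, the contact of motor nerve and fibre, is where the gene of smallest p acts, and most of its other genes stayed near 0. Of 18 tested, 1 passed (Chrna1), against 0.0294% of all genes, and 3 had an unadjusted p under 0.05, all higher (2.39% of all genes were). Above 0 were 10, where 50.1% of all genes were below 0, and the median log2 difference was 0.05. This list, like every gene list here, was chosen with earlier results of these data known, so its counts describe and do not test it. Chrne was at 6.61, 8.21, 8.97, 7.46 and 8.59 CPM in WT_WLM and at 11.9, 13.97, 12.1, 10.2 and 15.5 CPM in mCK-hLPL_WLM. Its groups did not overlap, but at 0.68 ± 0.13 (SE; edgeR adjusted p = 0.100) it did not pass in edgeR, while DESeq2 called it (adjusted p = 0.00131). In REL it was at 0.76 ± 0.14. Ache, the acetylcholinesterase that clears the transmitter, was at 17.7, 17.5, 23.9, 21.1 and 24.3 CPM in WT_WLM and at 28.5, 32.9, 23.2, 25.7 and 34.7 CPM in mCK-hLPL_WLM. The groups overlapped in mCK-hLPL replicate 3, and Ache stood at 0.47 ± 0.14 (edgeR adjusted p = 0.651).

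For the other receptor subunits no difference beyond the spread was detected. Chrnb1, the beta subunit, was at 21.3 ± 2.80 CPM in WT_WLM and 22.6 ± 1.49 CPM in mCK-hLPL_WLM (SD, n = 5 each), a log2 difference of 0.09 ± 0.11 with an interval of -0.15 to 0.32. Chrnd, the delta subunit, was at -0.18 ± 0.16. Chrng, the fetal gamma subunit that returns when a muscle loses its nerve, was between 0.0731 and 0.258 CPM in all 10 libraries and at -0.60 ± 0.45, with an interval of -1.54 to 0.34. The genes that organise the synapse also did not pass: Musk, the receptor kinase, was at 0.24 ± 0.13, Rapsn, which clusters the receptor, at 0.14 ± 0.09, Lrp4, the agrin receptor, at 0.11 ± 0.14, Dok7 at 0.02 ± 0.13 and Agrn at -0.15 ± 0.16. The value of Dok7 turned to -0.17 without the 3 libraries rich in T and B cell transcripts. Colq, the anchor of acetylcholinesterase, was at 0.08 ± 0.12, Scn4a, the muscle sodium channel, at -0.13 ± 0.14, Utrn at -0.06 ± 0.13, Nes at -0.03 ± 0.13, Etv5, an ETS factor, at 0.24 ± 0.13, and the neuregulin receptors Erbb2 and Erbb3 at -0.08 ± 0.15 and -0.10 ± 0.16.

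Genes listed for the response to denervation, not all of which rise after nerve loss, were examined beside these. None of 17 passed, 12 were below 0 (50.1% of all genes were) and the median was -0.12. In REL 7 of the 17 were below 0 (8018 of all 17028 genes were) and the median was 0.05. Myog, the myogenic factor that drives receptor genes after nerve loss, was at -0.48 ± 0.27. Hdac9 was at 0.70 ± 0.22 (edgeR adjusted p = 0.816), and at 0.44 without the 3 libraries rich in T and B cell transcripts. Mdfi was at -0.99 ± 0.36 (edgeR adjusted p = 0.942), with a low level between 0.0974 and 0.369 CPM in every WLM library. Myod1, of the myogenic factors, was at -0.43 ± 0.16 (edgeR adjusted p = 0.942). None of 19 myogenic factors passed. Of 11 Schwann and nerve markers 10 were above 0, where 50.1% of all genes were below 0. Their median was 0.14 and none was past an unadjusted p of 0.05. The sum of these markers was 101 to 176 CPM in WT_WLM and 103 to 218 CPM in mCK-hLPL_WLM. Their part in the values of the synaptic genes was not tested.

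**Figure D3:**
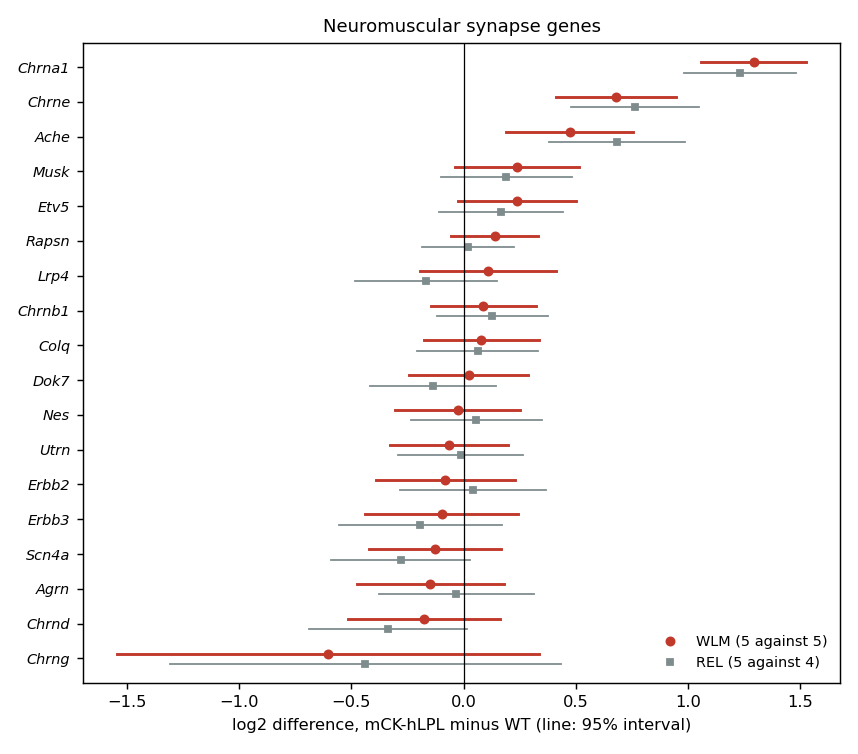
Log2 difference between mCK-hLPL and WT with its 95% interval for the 18 neuromuscular synapse genes, in WLM (red circles) and in REL (grey squares), ordered by the WLM value. Chrna1, Chrne and Ache lie to the right of 0 with both intervals clear of it, and in WLM the intervals of the other 15 genes include 0.

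Enzymes that break down branched-chain amino acids and ketone bodies tended to lower values in mCK-hLPL muscle without passing in edgeR. Both routes feed mitochondrial fuel use: the carbon of leucine, isoleucine and valine passes through branched-chain ketoacid and propionate enzymes, and ketone bodies are activated by Oxct1. Of 23 genes tested none passed in edgeR and DESeq2 called 3 (Pcca, Adhfe1 and Oxct1). Below 0 were 19 of the 23 (50.1% of all genes were), and 10 had an unadjusted p under 0.05 in the lower direction (2.47% of all genes). For 7 the groups did not overlap (0.358% of all genes, lower). These counts include Adhfe1, which was put on the list though it acts on gamma-hydroxybutyrate. The median log2 difference was -0.10 in WLM and -0.19 in REL, where 21 of the 23 were below 0, against -0.00 and 0.01 over all genes. The list was chosen with earlier results of these data known, so its counts describe and do not test it. Without the 3 libraries rich in T and B cell transcripts the median was -0.13, and with any 1 WLM library left out it ran from -0.18 to -0.08.

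Pcca, the alpha subunit of propionyl-CoA carboxylase, was at 26.2, 22.9, 25.2, 24.9 and 22.6 CPM in WT_WLM and at 19.6, 17.0, 22.0, 17.7 and 19.5 CPM in mCK-hLPL_WLM. The groups did not overlap, with a log2 difference of -0.34 ± 0.07 (edgeR adjusted p = 0.133, DESeq2 adjusted p = 0.00573). Its partner subunit Pccb was at -0.02 ± 0.07. Oxct1, which activates ketone bodies in muscle, was at 231, 199, 194, 197 and 187 CPM in WT_WLM and at 147, 145, 166, 143 and 168 CPM in mCK-hLPL_WLM. Every mCK-hLPL library was below every WT library, at -0.39 ± 0.09 in WLM (edgeR adjusted p = 0.347, DESeq2 adjusted p = 0.0363) and -0.52 ± 0.10 in REL. Adhfe1, which converts gamma-hydroxybutyrate, was at 28.9, 25.6, 26.7, 27.0 and 27.4 CPM in WT_WLM and 20.7, 20.1, 22.7, 18.9 and 19.7 CPM in mCK-hLPL_WLM, again with no overlap (-0.41 ± 0.09, edgeR adjusted p = 0.266, DESeq2 adjusted p = 0.0137).

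Other members with groups that did not overlap, named after their values were seen, were Ivd, which acts on leucine (-0.40 ± 0.10), Acadsb, which acts on isoleucine (-0.29 ± 0.08), Dbt, a subunit of the branched-chain ketoacid dehydrogenase (-0.29 ± 0.08), and Mmut, the mutase that ends the propionate route (-0.24 ± 0.07). Bcat2, the transaminase that starts the pathway in muscle, was at -0.29 ± 0.10. The remaining subunits and regulators of the dehydrogenase were nearer to 0, with Bckdha at -0.10 ± 0.08, Bckdhb at -0.15 ± 0.08, the kinase Bckdk at 0.05 ± 0.09 and the phosphatase Ppm1k at -0.08 ± 0.10. The values were thus uneven along the route.

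**Figure D4:**
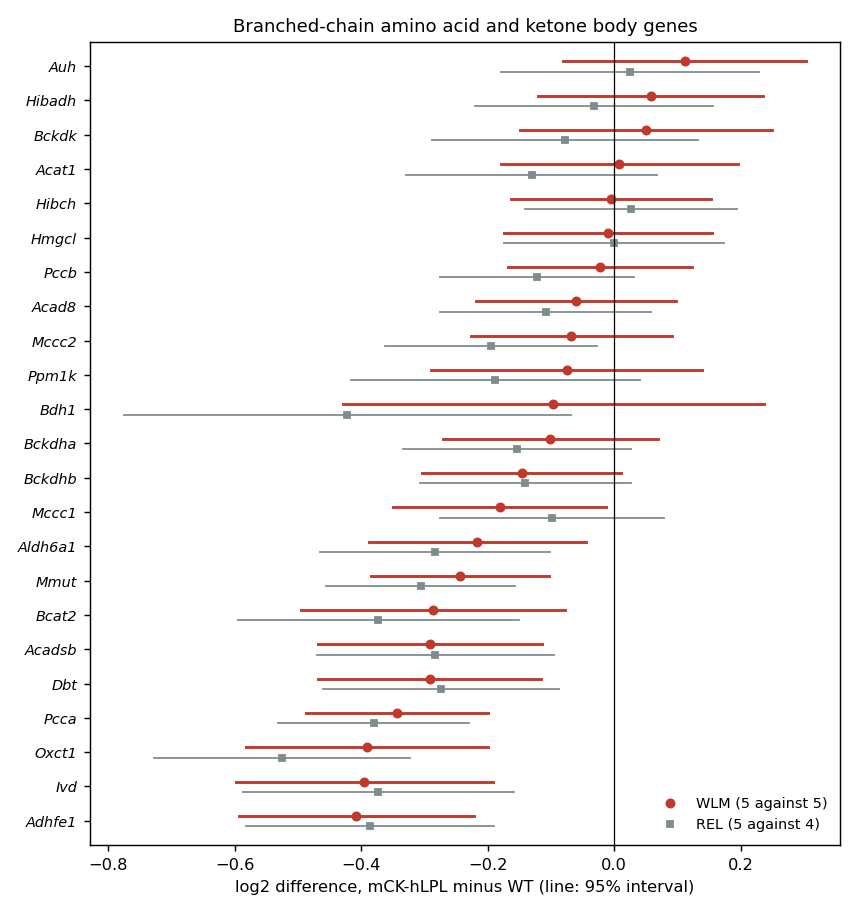
Log2 difference between mCK-hLPL and WT with its 95% interval for the 23 genes of branched-chain amino acid and ketone body use, in WLM (red circles) and in REL (grey squares), ordered by the WLM value. The lowest 4 in WLM are Adhfe1, Ivd, Oxct1 and Pcca, from -0.41 to -0.34, and 4 genes lie above 0. Adhfe1, listed with the others, acts on gamma-hydroxybutyrate.

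For the genes closest to the transgene's own reaction no difference was detectable at this depth. Of 19 genes of lipoprotein lipase and fatty acid uptake none passed, none reached an unadjusted p under 0.05, and the median was 0.00. Gpihbp1, the capillary anchor of the enzyme, was at 0.05 ± 0.15 (interval -0.27 to 0.36), and Angptl4, its inhibitor, at -0.16 ± 0.29 (interval -0.77 to 0.45), a value that turned to 0.29 without the 3 libraries rich in T and B cell transcripts. Cd36, the fatty acid transporter, was at 315 ± 37.3 CPM in WT_WLM and 315 ± 49.4 CPM in mCK-hLPL_WLM (SD, n = 5 each), with an interval of -0.21 to 0.22 on the log2 scale. Fabp3, the fatty acid binding protein of muscle, was at 0.15 ± 0.13 (interval -0.12 to 0.42).

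Fatty acid oxidation was measured with narrow intervals. None of 29 genes passed, and 3 had an unadjusted p under 0.05 in the higher direction (2.39% of all genes) and 1 in the lower (2.47%). The median was 0.02, and for 27 the interval lay within 0.5 of 0. Cpt1b, which admits fatty acids to mitochondria, was at 0.05 ± 0.09 (interval -0.13 to 0.23). Acadl, a long-chain acyl-CoA dehydrogenase, had the smallest p of the list. It was at 177, 127, 151, 160 and 133 CPM in WT_WLM and 171, 170, 181, 184 and 209 CPM in mCK-hLPL_WLM, overlapping in WT replicate 1 (0.29 ± 0.09, edgeR adjusted p = 0.942). Pdk4, which spares glucose by blocking pyruvate dehydrogenase, was spread widely. It was at 879 ± 253 CPM in WT_WLM and 716 ± 192 CPM in mCK-hLPL_WLM (SD, n = 5 each). Its interval of -1.02 to 0.43 on the log2 scale holds a large fall and a smaller rise.

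The regulators of these genes and of energy use also did not pass. Of 19 PPAR and PGC-1 genes none passed and the median was -0.02. Ppara was at -0.26 ± 0.18, Ppard at -0.19 ± 0.12 and the coactivator Ppargc1a at -0.04 ± 0.08 (interval -0.21 to 0.12), which turned to 0.04 without WT_WLM replicate 1 or without the 3 libraries rich in T and B cell transcripts. Rxrg, a partner receptor, was at 0.37 ± 0.11 in WLM (edgeR adjusted p = 0.722) and -0.00 ± 0.12 in REL. Of 21 genes of energy dissipation and calcium cycling none passed, with Ucp3, the muscle uncoupling protein, at -0.32 ± 0.29 (interval -0.93 to 0.28), Sln, sarcolipin, at 0.03 ± 0.25 (interval -0.50 to 0.55) and Pln, phospholamban, at 0.32 ± 0.15 (0.12 without the 3 libraries just named). All 35 respiratory chain genes and all 19 citric acid cycle genes had intervals within 0.5 of 0, with medians of 0.04 and -0.03.

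**Figure D5:**
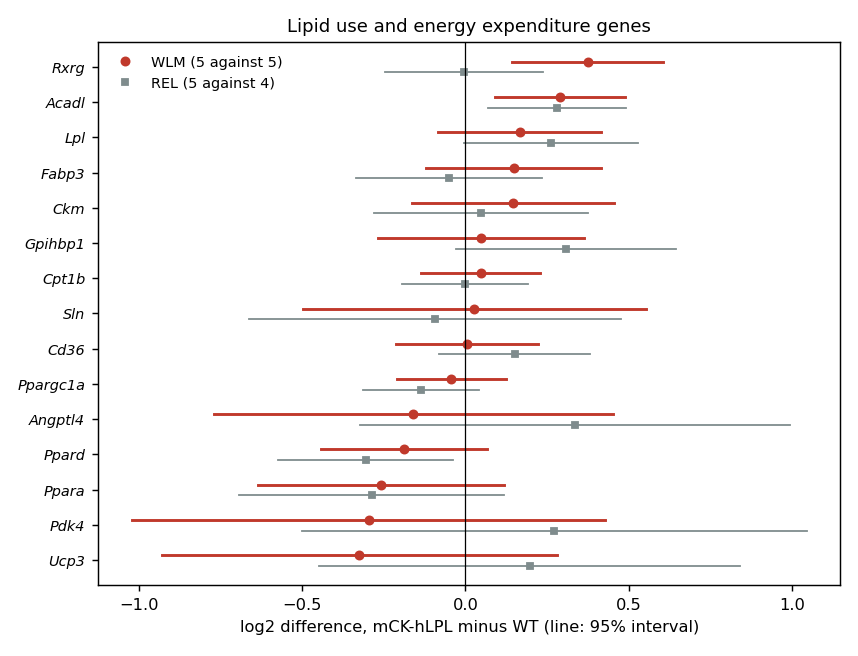
Log2 difference between mCK-hLPL and WT with its 95% interval for 15 genes of lipid uptake, oxidation, energy dissipation and their control, in WLM (red circles) and in REL (grey squares), ordered by the WLM value. In WLM the intervals of Rxrg and Acadl lie above 0 and the other 13 include 0, with the widest for Pdk4 (-1.02 to 0.43).

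Stored fat and its synthesis were measured less precisely. None of 21 fatty acid synthesis genes passed in WLM, 18 were below 0 (50.1% of all genes were) and the median was -0.14. In REL 7 were below 0 and the median was 0.08. Fasn, the fatty acid synthase, was at 302 ± 193 CPM in WT_WLM and 156 ± 87.5 CPM in mCK-hLPL_WLM (SD, n = 5 each), and its log2 difference of -0.95 ± 0.50 did not pass (edgeR adjusted p = 0.942). Fat cell markers ran the same way, with 13 of 14 below 0, a median of -0.27 and sums of 1859 to 2757 CPM in WT_WLM and 1876 to 2784 CPM in mCK-hLPL_WLM. Without the 3 libraries rich in T and B cell transcripts the median of the synthesis list was -0.02 and that of the fat cell markers 0.07. The part of fat tissue in the synthesis values was not tested. In bulk muscle, fewer cells of a type and less RNA per cell cannot be told apart. Of 23 triglyceride storage and lipolysis genes none passed (median -0.08, and 0.00 without those 3 libraries), and of 23 cholesterol synthesis genes none passed (median -0.06).

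Immediate early genes, which respond within minutes to contraction, stress or handling, were mostly lower. Of 24 tested none passed, but 22 were below 0 (50.1% of all genes were), 8 had an unadjusted p under 0.05 in the lower direction (2.47% of all genes), and the median was -0.36 in WLM and -0.16 in REL. This list too was chosen with earlier results known, and its counts describe it. Their summed level was 911, 968, 910, 731 and 951 CPM in WT_WLM and 896, 452, 529, 865 and 714 CPM in mCK-hLPL_WLM. The groups overlapped, with mCK-hLPL replicates 2 and 3 lowest. Fosl2 was at -0.70 ± 0.20 (edgeR adjusted p = 0.651) and Nr4a2, an orphan nuclear receptor, at -1.40 ± 0.45 (edgeR adjusted p = 0.928), ranging from 2.21 to 11.6 CPM in WT_WLM and from 0.746 to 5.07 CPM in mCK-hLPL_WLM. Without 1 WLM library the median of the list ran from -0.51 to -0.22, and without the 3 libraries rich in T and B cell transcripts it was -0.23.

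Stress and hormone responses showed the same overlap of groups. Of 23 heat shock genes 6 had an unadjusted p under 0.05, all lower (2.47% of all genes were), and none passed. Hspa1b was at 23.2, 60.2, 14.2, 23.6 and 45.4 CPM in WT_WLM and at 13.4, 7.57, 6.02, 24.2 and 15.7 CPM in mCK-hLPL_WLM (-1.32 ± 0.37, edgeR adjusted p = 0.651). Hspa1a was at -1.45 ± 0.44, and since the 2 genes are nearly identical their counts cannot be told apart with certainty. The median of the heat shock list was -0.03, with 17 of 23 below 0 (50.1% of all genes were). Of 20 glucocorticoid-responsive genes 18 were below 0 (50.1% of all genes were), none passed and the median was -0.28. It was -0.46 without mCK-hLPL_WLM replicate 4 and -0.19 without mCK-hLPL_WLM replicate 2. In REL 19 of the 20 were below 0 (8018 of all 17028 genes were) and the median was -0.13. The 2 members of smallest p were Sgk1 at -0.42 ± 0.16 and Cebpb at -0.58 ± 0.23. Of 22 FOXO and proteolysis genes none passed, and Fbxo32, the atrophy ligase, was at -0.47 ± 0.28 (interval -1.06 to 0.11).

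In the TGF-beta family 4 of 26 genes had an unadjusted p under 0.05, all lower (2.47% of all genes were), and none passed, while 12 were above 0 and 14 below with a median of -0.02. Smad3, a signal transducer, was at 75.6, 58.8, 55.5, 64.7 and 72.9 CPM in WT_WLM and at 47.1, 35.9, 49.5, 50.8 and 57.9 CPM in mCK-hLPL_WLM. The groups overlapped in 1 library, and the log2 difference was -0.44 ± 0.12 in WLM (edgeR adjusted p = 0.651) and -0.50 ± 0.13 in REL. Smad7, an inhibitor induced by the pathway, did not overlap between groups, at 11.4 to 12.9 CPM in WT_WLM and 7.23 to 11.1 CPM in mCK-hLPL_WLM (-0.38 ± 0.12, edgeR adjusted p = 0.813). Of the adrenergic receptor and cAMP genes, 2 of 19 had an unadjusted p under 0.05, both lower (2.47% of all genes were). They were Adra1a, given above, and Pde4b, a phosphodiesterase, at -0.42 ± 0.17 (-0.18 without the 3 libraries rich in T and B cell transcripts). Of 20 circadian clock genes none passed. Arntl, the clock's positive arm, was at -0.88 ± 0.32 and Dbp, a clock output, at 0.45 ± 0.18, but without those 3 libraries these values were -0.25 and 0.17 and the median of the list went from 0.10 to -0.03.

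Of 15 slow and 15 fast fibre genes none passed, with medians of -0.04 and 0.07, which were -0.19 and -0.06 without the 3 libraries rich in T and B cell transcripts. Myh4, the myosin of the fastest fibres, was at -0.20 ± 0.15, and Myh7, that of slow fibres, at -0.27 ± 0.18 in WLM and -0.59 ± 0.19 in REL. Of 24 collagen and matrix genes none passed and the median was 0.02. Without the 3 libraries rich in T and B cell transcripts that median was 0.25. Col4a2, a basement membrane collagen, was at -0.16 ± 0.20 and turned to 0.04 in that setting. None of 22 endoplasmic reticulum and integrated stress genes passed (median -0.01), with Trib3 at 0.43 ± 0.18, and none of 26 interferon response genes, with Irgm1 at -0.42 ± 0.17. The interferon median was -0.10 in WLM, 0.06 without the 3 libraries, and 0.35 in REL, where 24 of 26 were above 0.

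Markers of other cell types moved in places without any passing. Over all genes 50.1% were below 0. Of 20 T, B and plasma cell markers 19 were below 0 with a median of -1.06, and the median was 0.11 over the 11 still tested without the 3 libraries named above. All 8 erythroid markers tested were above 0 with a median of 0.54, which was 0.11 without mCK-hLPL_WLM replicate 1. Of 17 liver markers 16 were below 0 with a median of -0.46, which ran from -1.72 without mCK-hLPL_WLM replicate 4 to -0.07 without WT_WLM replicate 1 and was 0.18 without the 3 libraries, and Alb ranged from 0.977 to 22.3 CPM in WT_WLM and from 0.952 to 20.9 CPM in mCK-hLPL_WLM. The medians of the macrophage and neutrophil, endothelial, fibroblast, and smooth muscle and pericyte markers were 0.02, -0.13, 0.07 and -0.10, and without the 3 libraries 0.28, -0.12, 0.22 and -0.08. Of 12 satellite cell markers 7 were above 0 and 5 below, with a median of 0.03. Their summed levels overlapped, at 127 to 147 CPM in WT_WLM and 121 to 153 CPM in mCK-hLPL_WLM. At an unadjusted p under 0.05 there were 2, both higher (2.39% of all genes were). They were Pax7 at 0.49 ± 0.23 and Calcr at 0.80 ± 0.32, the latter between 0.145 and 0.487 CPM in every WLM library.

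The precision of the comparison depended on the level of the gene. The median SE of a log2 difference was 0.139, and the 95% interval lay within 1 of 0 for 84.4% of genes and within 0.5 for 58.5%. Among the 4257 genes of highest level these shares were 98.8% and 90.8%, and among the 4257 of lowest level 48.3% and 1.71%. For the low genes whose interval reaches beyond 1, a difference of that size is neither shown nor excluded.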

How the data were processed

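RNA was isolated with a column kit and libraries were made with a NuGEN mRNA kit, per the labels. The authors deposited whole-number counts for 54176 gene symbols in 19 libraries, not normalized. Builds mm10 and GRCm38, DESeq2 1.28.1 and Salmon 0.14.2 are named in the submitters' processing notes. How each was used, the strand setting and the annotation release are not stated there. The file's sheet name points to transformed values, but the values are whole and their totals differ, so they were treated as counts. No count was recorded for 19516 rows, and 24 rows with symbols turned into dates (0.0628% of counts) are not named. The WT_REL columns with unmatched numbers are called A and B.

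Genes kept by edgeR's filterByExpr (minimum count 10, minimum total 15; 17028 genes) were scaled with TMM and tested with edgeR 4.0.16 (R 4.3.3, glmQLFit and glmQLFTest) in a model of 4 group means over all 19 libraries. Two-sided p-values were adjusted over all genes by the Benjamini-Hochberg method, with a threshold of 0.05. SE is the log2 difference divided by the root of F, and the 95% interval uses the fit's degrees of freedom. CPM values use TMM-scaled totals. Alternatives were filters, scalings, moderation, a minimum change, limma 3.58.1 with library weights, DESeq2 1.42.0, a fit of the WLM groups only, a block on the replicate number and fits without each library in turn. The scripts were tested on simulated data. Pairs of replicates differed by a chi-square of at least 27.0 per degree of freedom.

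Named genes were those past the threshold, the next 20 by p without provisional symbols, all synapse and katanin genes, the 2 of smallest p per list and genes the study's question turns on; 2 genes that this rule names are not reported here. The 29 pathway and 12 marker lists (742 genes) and the comparison were chosen with earlier results of these data known. Coordinates are from GENCODE M21 on GRCm38, and 52503 symbols matched its names. Promoter windows are from RefSeq on GRCm38.p6, the same build. The unit of every value used was the deposited count.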

Additional observations from a re-analysis of the deposited data

Results flagged for a closer look

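Within each WLM group of 5, the values of the named genes and the summed levels of the lists were examined for 1 library far from the other 4. Of 288 groups, 17 had such a library, and chance alone flags about 1 in 20 groups. Groups where the lone library was high were Sema3a in WT_WLM replicate 2 (3.05 CPM against 1.89 to 2.15 CPM), Oxct1 in WT_WLM replicate 1 (230.5 CPM), Nes in WT_WLM replicate 2 (28.8 CPM), Katna1 in WT_WLM replicate 5 (8.86 CPM), and Ppara and Ppargc1a in WT_WLM replicate 1 (7.23 and 33.9 CPM). In mCK-hLPL_WLM the high values were Adra1a in replicate 3 (3.01 CPM), Scn4a in replicate 5 (365 CPM) and Katnal1 in replicate 3 (4.90 CPM). Low values were Adra1a in WT_WLM replicate 2 (2.37 CPM) and Lamb1 in WT_WLM replicate 4 (14.2 CPM).

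Among summed levels, the neuromuscular synapse list was at 644.8 CPM in mCK-hLPL_WLM replicate 5, the FOXO and muscle proteolysis list at 2979 CPM in mCK-hLPL_WLM replicate 4 and the erythroid markers at 3208 CPM in mCK-hLPL_WLM replicate 1, each above the other 4. Triglyceride storage and lipolysis was at 1444 CPM in WT_WLM replicate 2, slow and oxidative fibre genes at 4365 CPM in WT_WLM replicate 5 and immediate early genes at 730.5 CPM in WT_WLM replicate 4, each below the other 4. No genotype difference was found to differ between phases.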

How the results depend on the processing

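The count of 5 genes stayed at 5 with no filter on low counts, with a filter of 1 CPM in 5 libraries, with RLE or upper quartile scaling and with robust moderation, and was 4 with library weights in limma. It was 2 when a minimum log2 change of 0.5 was tested, 22 with DESeq2, and 2 with the WLM groups alone. With 1 library left out it ran from 3 to 7, with 3 genes without mCK-hLPL_WLM replicate 1, 2 or 5 or WT_REL replicate 1, and 7 without WT_REL replicate 2. Without the 3 libraries rich in T and B cell transcripts, a setting chosen with earlier results of these data known, it was 3. With the replicate number as a block in the 2 WLM groups, 2 genes were called, Chrna1 and Katnal2. Same-numbered libraries correlated from -0.36 to 0.12 in their deviations from the group means and the labels do not tie them, so the numbers were not taken to pair samples. Signs reversed for Ppargc1a (0.0397 without WT_WLM replicate 1, 0.0427 without the 3 libraries, from -0.0915 to 0.0397 over all libraries left out in turn) and, without the 3 libraries, for Dok7 (-0.171), Col4a2 (0.0447) and Angptl4 (0.290); the cause was not tested. Scaling moved the median of all genes from -0.00 to at most 0.01.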
